A study of Mus musculus with 32 samples.

Results

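A pair of populations of the embryonic mouse thymus was set against each other. Both were sorted by flow cytometry at embryonic day E19.5 from 5x polychromILC mice, a strain with fluorescent reporters of several factors, and both are labelled DN1, the earliest thymocyte stage, which lacks CD4 and CD8. The BCL11b+ID2+ gate was positive for both the BCL11b and the ID2 reporter, and the BCL11b-ID2- gate was negative for both. Each gate had 3 libraries, numbered 1, 2 and 4 in the labels, so the comparison rests on 6 of the 32 libraries of the series, chosen by their labels alone. Of the 26244 genes in the table, 13840 were tested, those that reached a normalised count of 10 in 3 or more of the 18 libraries of that age. The other E19.5 populations, 3 further DN1 gates (BCL11b+ID2-, BCL11b-ID2+ and BCL11blowID2low) and DN2 cells, entered the same model and serve here to place single genes. Whether the libraries of a gate derive from different animals is not in the labels, so the p-values reflect variation among these 3 and 3 libraries only, and part of it may be technical. Litters, the number of pooled embryos and the surface markers of the sort are not given in the sources used here.

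BCL11b is a zinc-finger factor that comes on when thymocytes commit to the T-cell fate, and group 2 innate lymphoid cells (ILC2) also depend on it. ID2 binds E proteins and keeps them off DNA. T-cell and B-cell development needs active E proteins, and innate lymphoid cells (ILCs) do not. ILC2 carry the receptors for the alarmins IL-33, IL-25 and TSLP, run on the factors GATA3 and RORα and make IL-13 and IL-5. Thymus-seeding progenitors still hold the programme of haematopoietic stem and progenitor cells, in which PU.1 and related factors drive myeloid genes, and they have not yet closed the B-cell, dendritic and myeloid routes.

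The sequences just before 3 of the genes are shown, since GATA3 in ILC2 and PU.1 in progenitors are known regulators of such genes: the receptor of IL-33 (Il1rl1) and the cytokine Il13, both higher in BCL11b+ID2+, and the granule protease Ctsg, which had no read there. Each is the 250 bases before the RefSeq start (GRCm38.p6), at chr1:40429320-40429569 on the plus strand, chr11:53634703-53634952 on the minus strand and chr14:56102575-56102824 on the minus strand. In the first pair the capitals mark a motif of GATA factors, AGATAA with TGATAA as its other form. In the last they mark GAGGAAG, a motif of PU.1 and other Ets factors. Both strands were searched.
Il1rl1: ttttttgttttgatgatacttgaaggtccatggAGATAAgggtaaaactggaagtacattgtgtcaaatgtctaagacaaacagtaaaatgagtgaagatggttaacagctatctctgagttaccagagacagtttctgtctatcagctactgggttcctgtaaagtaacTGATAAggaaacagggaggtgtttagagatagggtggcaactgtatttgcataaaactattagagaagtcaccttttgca
Il13: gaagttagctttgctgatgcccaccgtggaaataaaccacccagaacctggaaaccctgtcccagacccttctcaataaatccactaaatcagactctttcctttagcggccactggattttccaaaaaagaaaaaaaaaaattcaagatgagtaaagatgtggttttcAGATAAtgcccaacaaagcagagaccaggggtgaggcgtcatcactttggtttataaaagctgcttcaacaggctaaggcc
Ctsg: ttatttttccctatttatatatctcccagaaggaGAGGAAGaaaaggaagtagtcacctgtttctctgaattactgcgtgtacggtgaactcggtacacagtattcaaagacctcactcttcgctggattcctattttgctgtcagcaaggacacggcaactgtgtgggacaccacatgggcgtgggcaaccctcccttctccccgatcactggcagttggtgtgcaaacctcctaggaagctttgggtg
Il1rl1 held 2 GATA matches, 217 to 212 and 80 to 75 bases before the first of its 2 listed starts, Il13 had 1 at 81 to 76 bases, and Ctsg had 1 GAGGAAG at 216 to 210 bases. For reference, 16.6% of the 32851 promoter windows in the RefSeq table hold such a GATA match and 10.6% a GAGGAAG. The matches are descriptions of these letters, not sites of binding. Only 66.9% of the genes tested had a window in the table, so shares among the genes that differed were not compared.

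Reads recovered from the deposited values numbered 3111749 to 9178293 in the BCL11b+ID2+ libraries and 4065398 to 6155330 in the BCL11b-ID2- libraries. Mitochondrial ribosomal RNA took 42.1 to 58.8% and 40.9 to 50.3% of them, and 15982 to 16535 and 16642 to 17556 genes had a read. Libraries of a gate correlated at r = 0.845 to 0.872 for BCL11b+ID2+ and 0.874 to 0.886 for BCL11b-ID2- across genes, which are not independent replicates.

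The gates differed at 1971 genes with an adjusted p under 0.05 (limma, Benjamini-Hochberg), and these genes are termed called here. They make up 14.2% of the genes tested. 1099 genes were higher in BCL11b+ID2+ (7.94%) and 872 were lower (6.30%), while the median log2 difference over all genes was -0.03. The counts given below for gene lists are to be read beside these shares of all genes. Large differences were frequent, with 652 of the higher calls at a log2 difference of 2 or more and 551 of the lower calls at -2 or less. Of the calls, 1944 had no overlap between the libraries of the gates, against 32.9% of all genes tested. Scaled to equal totals outside mitochondrial genes, the median of all genes was -0.15 and 47.6% of calls were higher, in place of 55.8%.

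**Figure D1:**
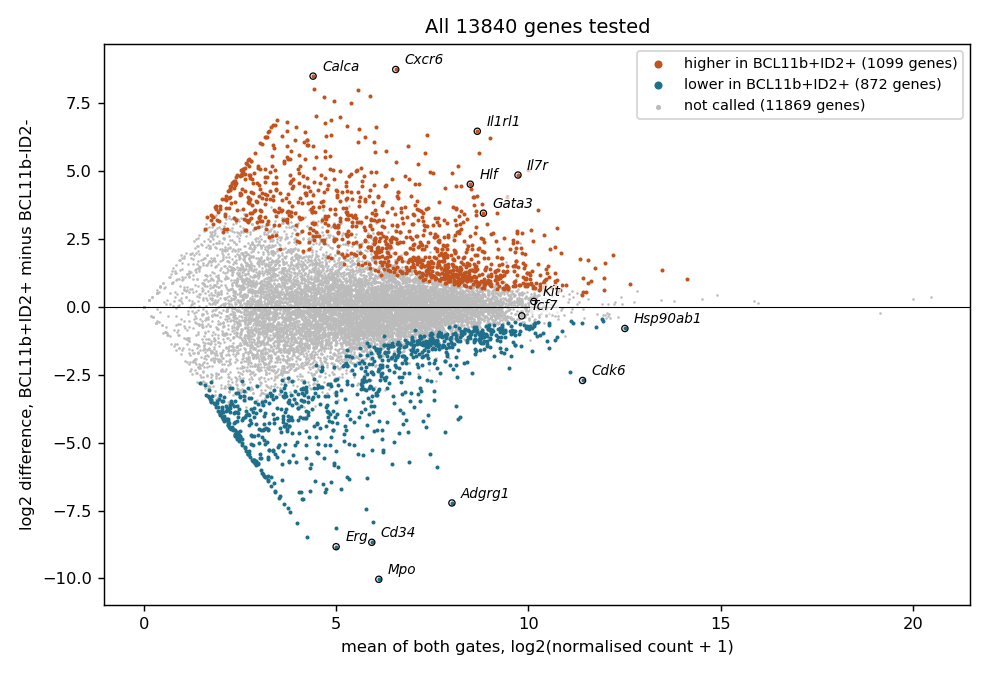
All 13840 genes tested, with the mean of both gates on the x axis (log2 of the normalised count plus 1) and the log2 difference, BCL11b+ID2+ minus BCL11b-ID2-, on the y axis. The 1099 genes called higher and the 872 called lower are coloured, and they reach from Cxcr6 at 8.74 to Mpo at -10.03.

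The reporter genes followed the gates. Bcl11b (chromosome 12, 107910403 to 108003602, GRCm38) had 409, 539 and 596 normalised counts in the 3 BCL11b+ID2+ libraries, against 17.1, 2.89 and 28.8 in the BCL11b-ID2- libraries. Id2 (chromosome 12, 25093799 to 25097140) had 961, 1174 and 1221 in BCL11b+ID2+, against 20.7, 24.6 and 18.2 in BCL11b-ID2-. Neither gene overlapped between the gates, as the sort on their reporters fixes, so their difference is a check of the labels and not a result.

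Receptors of ILC2 were mostly above. All 15 genes of the list were in the table and 14 passed the filter, of which 10 were called higher in BCL11b+ID2+ and 0 lower, with a median log2 difference of 3.92. Il1rl1, the IL-33 receptor (chromosome 1, 40429570 to 40465415), had 3187, 3755 and 3931 normalised counts in BCL11b+ID2+, against 41.5, 71.6 and 21.1 in BCL11b-ID2- (log2 difference 6.46 ± 0.70 SE, adjusted p = 6.04e-07 in the limma fit). Every BCL11b+ID2+ library lay far above every BCL11b-ID2- library. The gene was also called higher in BCL11b+ID2+ than in the gates positive for 1 reporter, which averaged 0.615 (BCL11b+ID2-) and 132 (BCL11b-ID2+). In a sorted bulk sample, a lower share of cells that express a gene and less RNA of it per cell cannot be told apart.

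Il7r, the receptor of the cytokine that all ILCs and early T cells depend on, had 5229, 3827 and 4333 normalised counts in BCL11b+ID2+, against 176, 96.2 and 208 in BCL11b-ID2-. That is a 27.9-fold difference (log2 difference 4.85 ± 0.33, adjusted p = 4.36e-10, limma). The groups did not overlap, and the BCL11b+ID2+ mean also exceeded those of BCL11b-ID2+ (1472) and BCL11b+ID2- (499), both called in the same fit.

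Il2ra encodes CD25, the marker by which DN2 cells are told from DN1. It had 2626, 2259 and 2038 normalised counts in BCL11b+ID2+, against 243, 398 and 434 in BCL11b-ID2- (log2 difference 2.72 ± 0.32, adjusted p = 1.92e-06, limma). DN2 cells averaged 7825, so the BCL11b+ID2+ mean of 2308 lay below DN2 and above every other DN1 gate, where means ran between 87.1 and 358.

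Il17rb, the IL-25 receptor, averaged 569 ± 116 normalised counts in BCL11b+ID2+ and 62.4 ± 31.4 in BCL11b-ID2- (SD, n = 3 each; log2 difference 3.29 ± 0.69, adjusted p = 0.00157 by limma). It was not called against the BCL11b+ID2- gate, which averaged 243. Il18r1, the IL-18 receptor, averaged 761 ± 91.7 and 53.8 ± 21.2, but BCL11b-ID2+ cells stood at 1579. Il9r, the receptor of an ILC2 growth factor, averaged 205 ± 7.8 and 13.3 ± 7.72, and here BCL11b+ID2+ was called above both gates with 1 reporter.

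Icos, Klrg1 and Nmur1 were near 0 in the progenitor gate. Icos, a costimulatory receptor, had 112, 172 and 197 normalised counts in BCL11b+ID2+, against 1.22, 1.45 and 0.96 in BCL11b-ID2- (adjusted p = 1.48e-05, limma). Klrg1, a marker of mature ILC2, had 39.2, 44.2 and 33.6, and 0 reads in the 3 BCL11b-ID2- libraries, which makes it at least 40.3-fold higher at a floor of 3 reads over the gate (23.9 to 43.1 when 1 library was left out). Nmur1, the neuromedin U receptor, had 48.1, 101 and 50.8, against 0, 1.45 and 0. Nmur1 had no read in any of the other 4 E19.5 populations. Floors and counting intervals here cover counting error only.

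Other members of the list were not called. Tnfrsf18 (GITR) had a log2 difference of 2.77 ± 0.94, with an adjusted p near the threshold (0.0507, limma). The TSLP receptor Crlf2 had 69.4, 37.6 and 15.8 normalised counts in BCL11b+ID2+, against 9.76, 30.4 and 15.4 in BCL11b-ID2-, and these overlap. Vipr2 overlapped as well, with means of 14.6 and 15.7. Ramp3 did not pass the filter. Per kilobase of annotated exon, a scale that allows genes to be compared, the mean level of the called receptors in BCL11b+ID2+ ran between 27.6 for Klrg1 and 957 for Il7r, with Il1rl1 at 526 and Il2ra at 404.

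**Figure D2:**
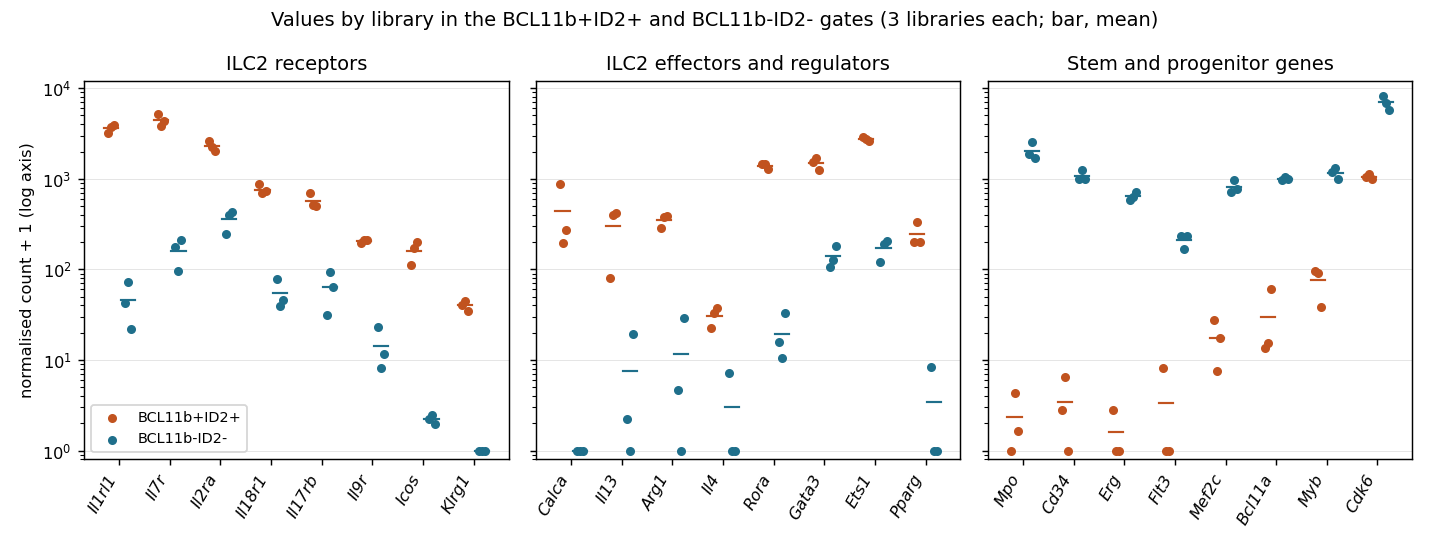
Normalised counts plus 1 on a log axis for 24 genes, with BCL11b+ID2+ left of BCL11b-ID2- for each gene, 3 libraries per gate and a bar at the mean. The receptor, effector and regulator genes stand above in BCL11b+ID2+ and the progenitor genes above in BCL11b-ID2-, with no overlap for any of the genes drawn.

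The receptors sit in a cluster whose members did not all behave alike. Il1r2, Il1r1, Il1rl1, Il18r1 and Il18rap, the members looked at here, lie on chromosome 1 between 40074079 and 40551705 (GRCm38). Il1rl1 and Il18r1 were called higher, and Il18rap, the second IL-18 receptor chain, averaged 586 ± 129 against 212 ± 96.2 (log2 difference 1.55 ± 0.47, adjusted p = 0.0278, limma), a call lost without BCL11b+ID2+ replicate 1 or 4 or BCL11b-ID2- replicate 2 or 4. Il1r1, the IL-1 receptor of type 3 ILCs, averaged 69.6 ± 44.3 in BCL11b+ID2+ and 171 ± 68.1 in BCL11b-ID2- and was not called. Il1r2, a decoy receptor, had 0 reads in BCL11b+ID2+ and an average of 8.56 in BCL11b-ID2-, and was not called.

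Effector genes of ILC2 were also mostly above among those tested. Of 15 genes of the list 14 were in the table and 9 passed the filter, of which 7 were called higher and 0 lower (median log2 difference 3.97). Il13 (chromosome 11, 53631324 to 53634702) had 80.1, 398 and 414 normalised counts in BCL11b+ID2+, against 1.22, 0 and 18.2 in BCL11b-ID2- (log2 difference 6.09 ± 1.34, adjusted p = 0.00265, limma). The libraries did not overlap, and BCL11b+ID2+ replicate 1 lay well below the others of its gate. Il13 was not called against BCL11b-ID2+, which averaged 75.9.

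Other members of the type 2 locus were lower in level or not above the neighbouring gate. Il4, the next gene on the chromosome, had 21.4, 32.1 and 36.3 normalised counts in BCL11b+ID2+, against 6.1, 0 and 0 in BCL11b-ID2- (adjusted p = 0.00761 by limma, not called by edgeR or DESeq2). Il5 had 0, 0 and 9.23 against 0, 0 and 0, too few for the test. Rad50 and Kif3a, the housekeeping genes that flank and separate these cytokines, averaged 896 against 589 and 82.2 against 49.6 and were not called. They were looked up after the cytokine values had been seen.

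Arg1, the arginase of ILC2 and their precursors, had 285, 376 and 391 normalised counts in BCL11b+ID2+, against 3.66, 0 and 27.9 in BCL11b-ID2- (log2 difference 6.09 ± 0.93, adjusted p = 5.52e-05, limma). Calca, which encodes the neuropeptide CGRP that ILC2 make, had 867, 196 and 274 and no read in BCL11b-ID2-, at least 461-fold higher at the floor. Without BCL11b+ID2+ replicate 1 that bound was 243-fold. Calca was called above both gates with 1 reporter as well, which averaged 2.4 and 3.58. Bmp7, a growth factor of the TGF-β superfamily, averaged 82.9 ± 13.8 and 1.13 ± 1.09, and Furin, a protease that activates such factors, 572 ± 45.3 and 98.3 ± 36, a 5.82-fold difference (adjusted p = 5.47e-05, limma).

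Lif, a cytokine of the IL-6 family, averaged 33.1 ± 24.6 in BCL11b+ID2+ and 1.3 ± 1.23 in BCL11b-ID2-, and its call was lost without BCL11b+ID2+ replicate 1 or 2 or BCL11b-ID2- replicate 4. Hpgds, the prostaglandin D2 synthase of haematopoietic cells, and Lpcat2 were not called. Areg, the epidermal growth factor family member of tissue ILC2, did not pass the filter, with 8.9, 68.5 and 33 normalised counts in BCL11b+ID2+ and none in BCL11b-ID2-. Penk and Il6, also under the filter, went the other way, with no read in BCL11b+ID2+.

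Genes for lipid mediators were called in both directions. Of 16 genes 15 were in the table and 14 passed, with 5 called higher and 3 lower (median 1.95). Cysltr1, the cysteinyl leukotriene receptor, had 1068, 1297 and 1538 normalised counts in BCL11b+ID2+, against 53.7, 55.7 and 64.3 in BCL11b-ID2- (22.5-fold, adjusted p = 2.54e-05, limma). Ltb4r1, the leukotriene B4 receptor, averaged 228 and 15.9. Ptgdr2, the prostaglandin D2 receptor CRTH2 that marks ILC2, averaged 173 and 3.13, and Ptger4, a prostaglandin E2 receptor, 418 and 114. The 5 calls above were all receptors, the fifth being Ptgir, whose call was lost without any 1 of the BCL11b+ID2+ libraries, without BCL11b-ID2- replicate 1 or 2, and by DESeq2.

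The 3 genes below were all enzymes or their partners. Pla2g4a, the phospholipase that releases arachidonic acid, had 28.5, 37.6 and 36.9 normalised counts in BCL11b+ID2+, against 307, 752 and 382 in BCL11b-ID2- (log2 difference -3.67 ± 0.92, adjusted p = 0.00736, limma). Alox5ap, which hands arachidonic acid to 5-lipoxygenase, averaged 15.7 ± 9.28 and 287 ± 82.9, and Lta4h, the enzyme that makes leukotriene B4, 156 ± 27.1 and 346 ± 18. The lipoxygenase gene Alox5 itself had 7.12, 0 and 9.23 against 6.1, 57.1 and 11.5 and was not called. Uncalled members did not all follow the roles of the called ones: the cyclooxygenase gene Ptgs1 averaged 139 ± 60.4 in BCL11b+ID2+ and 24.5 ± 15 in BCL11b-ID2-, its relative Ptgs2 94.6 ± 78.5 and 21.4 ± 17.3, and the prostaglandin E2 receptor Ptger2 26.7 ± 0.959 and 41.6 ± 13.2.

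Among the 23 lineage regulators, all tested, 12 were called higher and 1 lower (median 3.0). The higher calls include the reporter genes Bcl11b and Id2, so the count and the median are partly set by the sort. Rora had 1446, 1456 and 1285 normalised counts in BCL11b+ID2+, against 14.6, 9.4 and 31.7 in BCL11b-ID2- (log2 difference 6.32 ± 0.40, adjusted p = 1.83e-10, limma). Gata3 had 1526, 1678 and 1258 against 106, 125 and 182, a 10.8-fold difference (adjusted p = 6.52e-10, limma). These master factors of ILC2 separated the gates without overlap, but neither was called against BCL11b+ID2-, where they averaged 634 and 1301. Ikzf3, the Ikaros family member Aiolos, averaged 4385 ± 1313 and 58.8 ± 25, and Ets1, an Ets factor of lymphocytes, 2773 ± 152 and 172 ± 44.9.

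Pparg, the nuclear receptor of lipid uptake in ILC2, had 201, 334 and 200 normalised counts in BCL11b+ID2+, against 7.32, 0 and 0 in BCL11b-ID2- (adjusted p = 0.000122, limma), and was called above both gates with 1 reporter. Factors tied to other lymphoid fates were above as well. Maf, a factor of γδ T cells and helper T cells, averaged 1028 in BCL11b+ID2+ and 89.1 in BCL11b-ID2-, and Zbtb16, the PLZF factor of innate precursors, 148 and 22. In the BCL11b+ID2- gate Maf averaged 2019, and its difference from BCL11b+ID2+ was not called.

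Tcf7, which encodes TCF-1, needed in both T-cell and ILC development, overlapped between the gates with 936, 884 and 603 normalised counts in BCL11b+ID2+ against 1281, 940 and 830 in BCL11b-ID2-. Lef1, its relative, was called higher at 221 ± 30.6 against 27.4 ± 21.1. Runx1, a factor of stem cells and T-cell precursors, was the 1 regulator called lower, with 924, 817 and 731 against 1358, 1485 and 1441 (1.73-fold, adjusted p = 0.00337, limma). Tbx21 and Eomes, the T-box factors of natural killer (NK) cells, had 4 reads each in BCL11b+ID2+ and 2 and 1 in BCL11b-ID2-, so no fold is given. Of 14 innate lymphoid precursor genes, which share members with the list above, 10 were called higher and 1 lower (median 3.54). Id2, whose difference the sort fixes, is again among the higher calls. Pdcd1, the receptor PD-1 of ILC precursors, was among the higher, at 83.3 ± 49 against 7.51 ± 4.34, and the lower one was Itga4, lost in 5 of the 6 fits without 1 library.

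The genes with the largest differences were ranked among those called, without overlap and and at a mean of 100 or more in whichever gate was higher. The first 15 of 755 eligible genes above were Cxcr6, Calca, Ccr6, Mmp25, Stab2, Pxdc1, Npnt, Tlr1, Adam12, Pard3, Pparg, Aqp3, Foxp2, Slc27a6 and Epas1, with log2 differences of 6.70 to 8.74. Cxcr6, a chemokine receptor of ILC precursors, led at 1451, 1857 and 2483 normalised counts in BCL11b+ID2+, against 3.66, 2.17 and 4.8 in BCL11b-ID2-, 545-fold (log2 difference 8.74 ± 0.41, adjusted p = 2.51e-12, limma). Of these, 11 were also called higher in BCL11b+ID2+ than in BCL11b+ID2-, a comparison that called 8.73% of all genes in either direction. Against BCL11b-ID2+, which called 6.03%, 14 were higher. These comparisons share the BCL11b+ID2+ libraries. The 15 genes were ranked by high values in those libraries, so both counts are partly set by the ranking.

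The levels of these genes in the other gates differed. Pard3, a cell polarity gene, had 536, 265 and 261 normalised counts there, against 0, 5.06 and 1.92 in BCL11b-ID2- and averages of 0 in BCL11b+ID2- and 0.995 in BCL11b-ID2+. Pxdc1 averaged 340 ± 79.5 and 0.96 ± 1.66, and Foxp2, a forkhead factor, 141 ± 65 and 0.241 ± 0.418, with 1 read in BCL11b-ID2-. Stab2, a scavenger receptor also known from macrophages and sinusoidal endothelium, had 641, 967 and 750 against 1.22, 1.45 and 7.68. Epas1, the hypoxia factor HIF-2α, and Aqp3, a glycerol channel, had no read in BCL11b-ID2- and were at least 114-fold and 125-fold higher, bounds that were 67.6 and 74.2 at the lowest when 1 library was left out. They averaged 9.44 and 23.5 in BCL11b+ID2-, and neither was called against that gate.

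Genes of high level followed a second ranking, at a mean of 2000 or more in that gate. Itgb3, the β3 integrin, had 4659, 6194 and 6348 normalised counts in BCL11b+ID2+, against 229, 203 and 110 in BCL11b-ID2- (31.7-fold, adjusted p = 1.14e-11, limma). Fgl2, a secreted fibrinogen-like protein, averaged 2974 ± 606 and 59 ± 16.8, and Arl5a, a small GTPase of the Golgi, 2259 ± 825 and 311 ± 37.6. Arl5a averaged between 265 and 386 in every other E19.5 population. Ahnak, a very large scaffold protein, averaged 4153 and 354 but was not called against BCL11b-ID2+, where it stood at 9721. The others were Il1rl1, Ikzf3, Il7r, Ets1, Shisa5 and Emb.

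**Figure D3:**
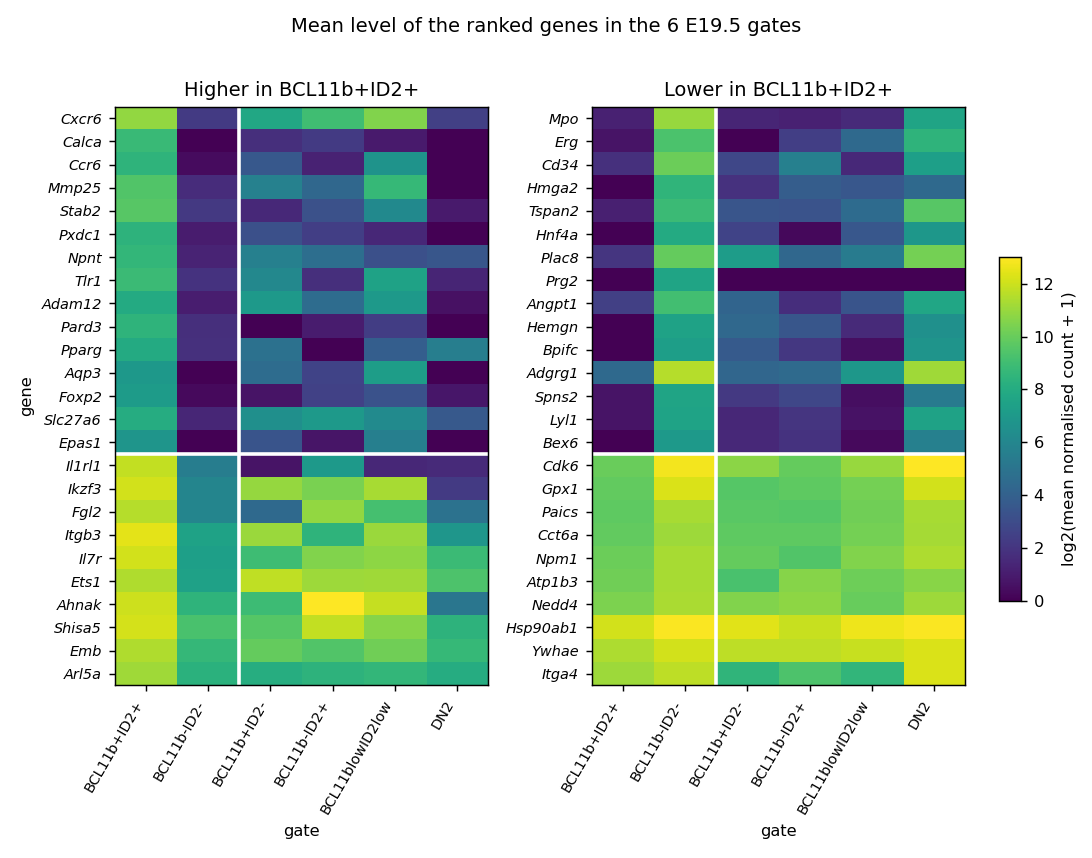
Mean level of the 50 ranked genes, as log2 of the mean normalised count plus 1, in the 6 E19.5 populations, with BCL11b+ID2+ and BCL11b-ID2- left of the white line. The 15 genes of largest difference stand above the horizontal line and the 10 of high level below it, and several genes on the right, Mpo at 193 and Plac8 at 1231 among them, also had reads in DN2.

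Receptors and integrins of homing were mostly above. All 26 genes were tested, 15 were called higher and 3 lower (median 2.19), and 1 to 3 lower without 1 library. Cxcr6 lies on chromosome 9 among other chemokine receptor genes between 123678439 and 124113557. In this stretch Ccr9, the receptor for the thymic chemokine CCL25, averaged 1859 ± 587 in BCL11b+ID2+ and 325 ± 58.6 in BCL11b-ID2-, Xcr1 71.7 ± 50.7 and 3.2 ± 5.54, and Ccr2 1512 ± 179 and 93.7 ± 26.6, all called. Ccr1 averaged 3.11 ± 3.65 and 17.3 ± 0.832 and was not called, and Ccr3 did not pass the filter. Ccr1 and Ccr3 were looked up after the others had been seen.

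Receptors of tissue entry and retention were also above. Ccr6, a receptor of mucosal tissue, had 189, 443 and 421 normalised counts in BCL11b+ID2+ and 1 read in all in BCL11b-ID2-. Ccr8, a receptor of type 2 cells in skin, averaged 314 ± 107 and 6.34 ± 10.4, Itgae, the CD103 integrin that binds epithelium, 1432 ± 263 and 46.3 ± 11.6, and S1pr1, the receptor for leaving the thymus, 470 ± 132 and 38.4 ± 15.6. Ccr6 and S1pr1 were also called above both gates with 1 reporter, while Ccr8 and Itgae were called against neither. Itga4 and Itgb1, which form the integrin VLA-4, were called lower. Both had adjusted p over 0.03 and were lost without BCL11b+ID2+ replicate 1 or 2 or without BCL11b-ID2- replicate 1 or 2, and Itga4 also without BCL11b-ID2- replicate 4.

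Among 26 cytokine receptors tested, 14 were called higher and 2 lower (median 1.82). The common γ chain Il2rg averaged 1832 ± 257 in BCL11b+ID2+ and 459 ± 61.6 in BCL11b-ID2- (3.99-fold, adjusted p = 1.41e-08, limma). Tgfbr2, the TGF-β receptor, averaged 1228 ± 188 and 279 ± 35.4, and Ifngr1, the interferon-γ receptor, 1342 ± 392 and 242 ± 13. The genes below, Il12rb2 and Il21r, were lost in 1 and 3 of the 6 fits that each left out 1 library (Il12rb2 without BCL11b+ID2+ replicate 2, Il21r without that library or BCL11b-ID2- replicate 2 or 4). Of 18 costimulation and TNF superfamily genes tested, 8 were called higher and 0 lower (median 2.14), and 5 to 7 when 1 library was left out. Tnfrsf25, the DR3 receptor of ILC2, averaged 147 ± 26.6 and 1.22 ± 2.11, and Cd96, a receptor of T and NK cells, 471 ± 94.9 and 75.9 ± 33.2.

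T-cell receptor genes were above in BCL11b+ID2+ but below the level of the BCL11b+ID2- gate for several members. All 19 genes of the receptor complex and its signalling were tested, 11 were called higher and 2 lower (median 1.58; 0 to 2 lower without 1 library). Cd3e had 1018, 1044 and 945 normalised counts in BCL11b+ID2+, against 149, 60 and 135 in BCL11b-ID2- (8.73-fold, adjusted p = 3.19e-08, limma), and averaged 4395 in BCL11b+ID2-, called above BCL11b+ID2+. Cd3g, another chain of the complex, averaged 532 ± 14.4 and 22.1 ± 14.6 and Thy1, a surface glycoprotein of T cells and ILCs, 1256 ± 200 and 126 ± 58.5. Cd3d, next to them on the chromosome, overlapped at 60.5, 87.3 and 108 against 14.6, 75.2 and 28.8. Lck, the kinase of the receptor, fell by 1.04 on the log2 scale, a call lost without BCL11b-ID2- replicate 4.

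Most listed transcripts of γδ T cells were higher in BCL11b+ID2+ than in BCL11b-ID2-, but not all. Sox13, Etv5 and Tcrg-C2 were not called, and all of them were called below the BCL11b+ID2- gate. In BCL11b-ID2+ the summed level of the list was 2005 to 2488 normalised counts. All 13 genes were tested, 8 were called higher and 2 lower (median 2.15; 1 to 3 lower without 1 library), and their summed level was 3569 to 4426 normalised counts in BCL11b+ID2+ and 1656 to 2208 in BCL11b-ID2-, against 14090 to 18553 in BCL11b+ID2-. Trdc, the δ constant region, had 306, 412 and 293 in BCL11b+ID2+, against 52.4, 45.6 and 65.3 in BCL11b-ID2- (6.2-fold, adjusted p = 2.65e-07, limma). Cd163l1, a scavenger receptor of γδ T cells, averaged 839 ± 80.6 and 15 ± 9.56. It was not called against either gate with 1 reporter (log2 difference 0.255 from BCL11b+ID2- and -0.196 from BCL11b-ID2+). Sox4, a factor of early γδ cells, was lower at 25.2 ± 14.4 against 181 ± 18.2. Reads of the receptor segments may be shared among near-identical copies. Whether γδ T cells in the gate have a part in the receptor differences was not tested.

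Genes of the αβ route were called in both directions, with 1 higher (Cd8a) and 3 lower (Rag2, Trbc1 and Trbc2) of 13 tested, at a median of 0.65. Rag2, a subunit of the recombinase that cuts receptor genes, averaged 16.4 ± 3.16 in BCL11b+ID2+ and 181 ± 47 in BCL11b-ID2- (log2 difference -3.37 ± 0.75, adjusted p = 0.00293, limma). Its partner Rag1, on the same stretch of chromosome 2, averaged 240 ± 57.1 and 110 ± 21.7, without overlap and not called (adjusted p = 0.0573, limma). Trbc2, a β constant region, had 790, 924 and 962 against 1749, 1856 and 1809. Trbc1 lost its call without BCL11b+ID2+ replicate 2 or any 1 of the BCL11b-ID2- libraries.

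Of 17 NK and ILC1 genes tested, 5 were called higher and 2 lower (median 0.34), and 3 to 4 higher and 0 to 2 lower without 1 library. Their summed level was 1100 to 1761 normalised counts in BCL11b+ID2+ and 641.6 to 941 in BCL11b-ID2-, against 24695 to 32666 in BCL11b-ID2+. Klrk1, the NKG2D receptor, averaged 120 ± 3.6 and 3.86 ± 3.35, and Il2rb, the IL-2 and IL-15 receptor β chain, 793 ± 369 and 93.6 ± 59.8. Ncr1, the defining NK receptor, had 12 reads in BCL11b+ID2+ and 6 in BCL11b-ID2-. Of 11 type 3 ILC genes tested, 6 were called higher and 0 lower (median 2.94), with Il23r, the IL-23 receptor, at 92.1 ± 19 against 1.92 ± 3.33 and Ahr, the aryl hydrocarbon receptor, at 826 ± 277 against 107 ± 62.2. Il22 did not pass the filter.

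Several markers of macrophages were higher in BCL11b+ID2+ than in BCL11b-ID2-. Of the 12 genes 11 were tested, 5 were called higher and 0 lower (median 2.88), and 2 to 4 of them when 1 library was left out. Their summed level was 1960, 752 and 915 normalised counts in BCL11b+ID2+ libraries 1, 2 and 4, against 217, 304 and 320 in BCL11b-ID2-. The sum was not particular to BCL11b+ID2+, as it reached 927 to 1098 in BCL11b-ID2+, while BCL11b+ID2- had 87.6 to 196. Cd14 was the 1 member without a read in BCL11b-ID2-. Mrc1, the mannose receptor, had 285, 109 and 222 in BCL11b+ID2+, against 22, 21 and 18.2 in BCL11b-ID2- (adjusted p = 0.00853, limma). C1qa, a complement chain, had 198, 68.5 and 33 against 0, 0 and 25, and was lost by edgeR and DESeq2 and without BCL11b+ID2+ replicate 1 or BCL11b-ID2- replicate 1 or 2.

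Several other macrophage genes were tested and not called. Adgre1 (F4/80) had 114, 45.3 and 53.4 normalised counts in BCL11b+ID2+ against 13.4, 34 and 14.4 in BCL11b-ID2-, and Lyz2, the lysozyme of myeloid cells, 23.1, 35.4 and 1.98 against 79.3, 134 and 92.2. Csf1r, the growth factor receptor of macrophages, overlapped at 146 ± 64.1 and 161 ± 31.5. BCL11b+ID2+ library 1 had the highest sum of these markers. Without it 837 genes were called higher over the whole table, the fewest of the fits that each left out 1 library (837 to 932). The next lowest count was 838, without BCL11b-ID2- replicate 2. The part of macrophage RNA in the genes called higher was not tested.

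**Figure D4:**
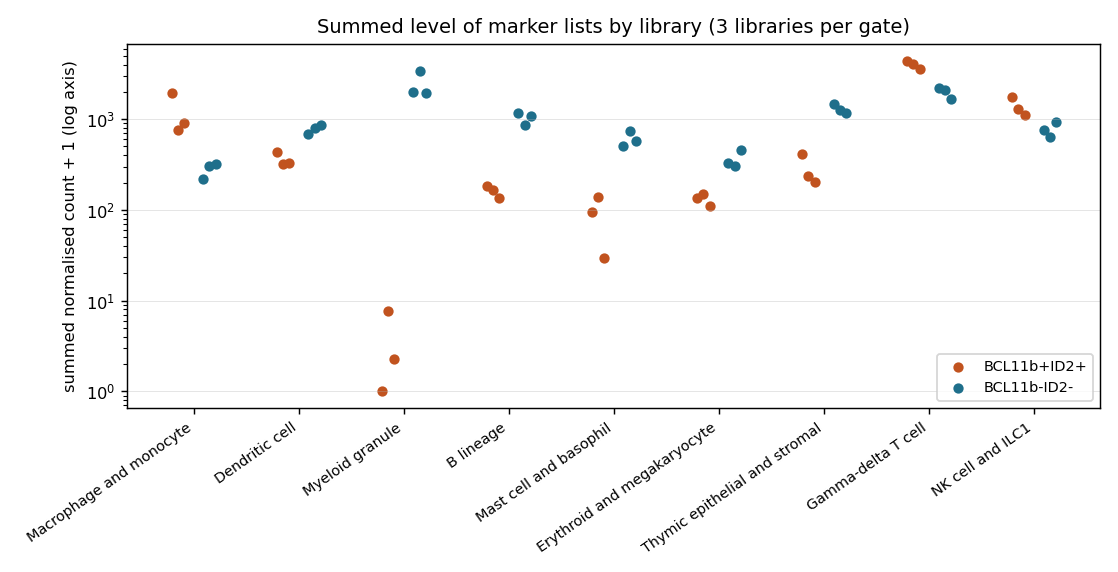
Summed normalised count plus 1 (log axis) of 9 marker lists in each library, with BCL11b+ID2+ left of BCL11b-ID2- for each list. The myeloid granule sum is 0 to 6.6 in BCL11b+ID2+ and 1956 to 3354 in BCL11b-ID2-, while the macrophage sum is 752 to 1960 and 217 to 320.

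Stem and progenitor regulators were mostly below. Of 22 genes 21 were in the table and 19 were tested, with 14 called lower in BCL11b+ID2+ and 2 higher (median -5.10). Erg, an Ets factor of stem cells, had 1.78, 0 and 0 normalised counts in BCL11b+ID2+, a single read, against 585, 629 and 712 in BCL11b-ID2- (ratio 1082, 95% counting interval 194 to 42739, and 485 to 1130 when 1 library was left out; adjusted p = 6.41e-06, limma). Lyl1, a helix-loop-helix factor of progenitors, had 1.78, 0 and 0 against 172, 199 and 193, and its relative Tal1 had no read against 26.8, 70.2 and 83.6. Bcl11a, the paralogue of Bcl11b used in B-cell and dendritic precursors, averaged 28.9 ± 26.9 and 999 ± 32.6.

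Mef2c, a factor of lymphoid-primed progenitors, had 26.7, 6.63 and 16.5 normalised counts in BCL11b+ID2+, against 710, 964 and 763 in BCL11b-ID2- (log2 difference -5.70 ± 0.74, adjusted p = 6.76e-06, limma). Myb had 96.1, 90.7 and 37.6 against 1176, 1316 and 996 (log2 difference -4.05 ± 0.32, adjusted p = 3.8e-09, limma), while BCL11b+ID2- cells averaged 1022. Hoxa7 and Hoxa9, neighbours on chromosome 6 (52214491 to 52231089), had 0 and 1 read in BCL11b+ID2+ and averaged 81.1 ± 32.9 and 64.2 ± 37.8 in BCL11b-ID2-. Spi1, which encodes PU.1, had 62.3, 23.2 and 8.57 against 287, 252 and 185, and was lost in 5 of the 6 fits without 1 library, all but that without BCL11b+ID2+ replicate 1.

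The 2 members of the list that were higher did not follow the rest. Hlf, a PAR bZIP factor known from haematopoietic stem cells, had 1684, 1990 and 1479 normalised counts in BCL11b+ID2+, against 85.4, 69.4 and 67.2 in BCL11b-ID2- (23.2-fold, adjusted p = 0.00344, limma). No library came close to the other gate, and the highest mean of the other E19.5 populations was 135. Lmo4, a LIM-only protein, averaged 1385 ± 272 and 104 ± 31.4, and its other E19.5 means ran between 77.9 and 201. Both genes were called above the 2 gates with 1 reporter.

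Surface receptors of progenitors were split. Of 19 genes 16 were tested, 7 were called lower and 2 higher (median -1.69). The higher ones were Ly6a and Il6ra, the IL-6 receptor, and Il6ra was lost without BCL11b+ID2+ replicate 2 or BCL11b-ID2- replicate 4. Cd34 (chromosome 1, 194938819 to 194961279), the stem and progenitor antigen, had 1.78, 5.53 and 0 normalised counts in BCL11b+ID2+, against 994, 1249 and 987 in BCL11b-ID2- (log2 difference -8.67 ± 0.76, adjusted p = 2.71e-08, limma). Flt3, the cytokine receptor of lymphoid-primed progenitors, had 7.12, 0 and 0 against 231, 166 and 230. Kit, the stem cell factor receptor that marks early thymic progenitors, was not called, with 1216, 1135 and 1251 against 1123, 1199 and 850 (log2 difference 0.20 ± 0.28, adjusted p = 0.73, limma). Kit was nevertheless called above both single-reporter gates for each of the 2 gates compared. Ly6a (Sca-1), a stem cell antigen also carried by ILC2, was called higher at 1608 ± 161 against 121 ± 51.1.

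Myeloid granule genes were all but absent from the double-positive gate, and this was not particular to it. Their summed level was 0 to 6.6 normalised counts in BCL11b+ID2+ and 1956 to 3354 in BCL11b-ID2-. It was 0 to 58.1 in BCL11b+ID2-, 3.1 to 11.8 in BCL11b-ID2+, 1.6 to 19.9 in BCL11blowID2low and 333 to 428 in DN2. Of 12 genes 9 had no read in BCL11b+ID2+. The filter counts all 18 libraries, so a gene read in 1 gate alone passes only through that gate; 5 of the 12 passed and were called lower (median -5.59, and -6.20 with genes at 0 reads put at their bound). Mpo, the myeloperoxidase, had 0, 3.32 and 0.659 normalised counts in BCL11b+ID2+, against 1882, 2567 and 1704 in BCL11b-ID2- (log2 difference -10.03 ± 0.81, adjusted p = 6.71e-09, limma), the largest difference of the ranking. Elane and Prtn3, the elastase and proteinase of neutrophil granules, and Ctsg, cathepsin G, had no read in BCL11b+ID2+ and averaged 87.1, 95.8 and 64.7, with BCL11b-ID2- library 2 highest for each. Ctsg, whose upstream sequence is printed above, was at least 54.7-fold lower at the floor (27.3 to 75.9 when 1 library was left out). DESeq2 did not call Elane or Ctsg.

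The 15 genes of largest difference below, of 479 eligible, were Mpo, Erg, Cd34, Hmga2, Tspan2, Hnf4a, Plac8, Prg2, Angpt1, Hemgn, Bpifc, Adgrg1, Spns2, Lyl1 and Bex6. All 15 were also called higher in BCL11b-ID2- than in each gate with 1 reporter. These comparisons share the BCL11b-ID2- libraries and called 14.9% (BCL11b+ID2-) and 15.9% (BCL11b-ID2+) of all genes in either direction. The 15 genes were ranked by high values in the shared libraries, so this count is partly set by the ranking. Hmga2, a chromatin protein of fetal stem cells, had no read in BCL11b+ID2+ and 292, 418 and 368 normalised counts in BCL11b-ID2-. Prg2, the major basic protein of eosinophils, had 229, 219 and 128 in BCL11b-ID2- and no read in any of the 5 other E19.5 populations, and DESeq2 did not call it. Adgrg1 (GPR56), a receptor of stem cells, averaged 21 ± 10.5 and 3026 ± 183, and Angpt1, a vascular and niche factor, 4.52 ± 6.9 and 534 ± 67.7. Lin28b, the fetal regulator that lies in one pathway with Hmga2, averaged 7.24 ± 3.72 and 178 ± 40.2. Both belong to a list of fetal growth genes, of which 7 of 11 were tested, 3 called lower and 0 higher (median -1.42). The remaining call, Igf2bp3, an RNA-binding protein of fetal cells, was lost in 5 of the 6 fits without 1 library, all but that without BCL11b-ID2- replicate 4.

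Genes of high level that were lower came next, by the second ranking. Cdk6, the G1 kinase, had 1047, 1129 and 986 normalised counts in BCL11b+ID2+, against 8279, 6934 and 5716 in BCL11b-ID2- (6.62-fold lower, adjusted p = 3.8e-09, limma). Gpx1, a glutathione peroxidase, averaged 951 ± 165 and 4962 ± 864, Paics, of purine synthesis, 890 ± 300 and 2477 ± 478, and Npm1, of ribosome assembly, 1088 ± 250 and 2496 ± 248. The rest of the 10 were Cct6a, Atp1b3, Nedd4, Hsp90ab1, Ywhae and Itga4, at 1.5 to 2.3-fold. They were not chosen as a group, and no pathway was tested.

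Of 8 B-lineage genes tested 7 were called lower (median -4.49, and -4.44 with genes at 0 reads put at their bound). Of the 8, 5 had no read in BCL11b+ID2+ and could pass the filter only through other gates, so the count and the median are partly set by the filter. The list holds Ebf1 and Pax5, the factors that set B-cell identity, at 0 reads in BCL11b+ID2+ and 45.4 ± 2.51 and 26.8 ± 13.2 normalised counts in BCL11b-ID2-. DESeq2 did not call Pax5, and 8 of the 11 members in the table had no read in BCL11b+ID2+. Ighm was the most abundant at 34 ± 10.4 against 738 ± 134, and the summed list was 134.5 to 183 against 867 to 1178. The sum was 827 to 1081 in BCL11b-ID2+, 1255 to 2206 in BCL11b+ID2-, 1380 to 1736 in BCL11blowID2low and 82.6 to 143 in DN2. Of 7 mast cell and basophil genes 3 were called lower and 0 higher (median -1.23), Cpa3, the mast cell carboxypeptidase, at 28.5 ± 16.9 against 378 ± 31.8. The other lower calls, Ms4a2 and Mcpt8, had no read in BCL11b+ID2+, so this count too is partly set by the filter. The summed list was 28.4 to 139 in BCL11b+ID2+ and 499 to 739 in BCL11b-ID2-. It was 1612 to 1678 in BCL11b-ID2+, 618 to 1008 in BCL11b+ID2-, 26.8 to 108 in BCL11blowID2low and 724.5 to 932 in DN2. Of 9 dendritic genes 2 were lower and 1, Xcr1, higher (median -1.03), with Siglech, of plasmacytoid cells, at 0 against 65.9, 46.3 and 56.7. Siglech too could pass the filter only through other gates. Over all genes tested 6.30% were called lower and 7.94% higher. 

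Of 8 thymic epithelial and stromal genes tested 4 were called lower and 0 higher (median -3.16). The summed level of the list was 200.5 to 417 normalised counts in BCL11b+ID2+ and 1163 to 1466 in BCL11b-ID2-. It was 646 to 1072.5 in BCL11b+ID2-, 195 to 315 in BCL11b-ID2+, 115 to 344 in BCL11blowID2low and 661 to 1057 in DN2. Pdgfrb, a mesenchymal receptor, averaged 10.9 ± 3.5 and 644 ± 131, but Col3a1 and Pdgfra had no read in BCL11b+ID2+ and did not pass the filter. Psmb11, the proteasome subunit of cortical epithelium, had no read in BCL11b+ID2+ and averaged 23.7 ± 11 in BCL11b-ID2-. It could pass the filter only through other gates. Of 7 erythroid and megakaryocyte genes 1, Hbb-bt, was called lower and 0 higher (median 0.4), beside 6.30% and 7.94% of all genes tested. The call of Hbb-bt was lost in 5 of the 6 fits without 1 library, all but that without BCL11b+ID2+ replicate 2. Whether cells of these lineages within the BCL11b-ID2- gate, or their RNA, have a part in the lower calls was not tested.

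Notch pathway genes were called in both directions. Of 12 genes 10 were tested, 2 called higher and 2 lower (median 0.13), beside 7.94% and 6.30% of all genes tested. Notch1, the receptor that drives T-cell commitment, had 438, 280 and 274 normalised counts in BCL11b+ID2+, against 1750, 1296 and 1595 in BCL11b-ID2- (4.68-fold lower, adjusted p = 2.48e-06, limma), and Notch3 averaged 0.962 and 95.6. The receptor Notch2 was not called, at 769 ± 153 in BCL11b+ID2+ and 526 ± 107 in BCL11b-ID2-. The ligand Jag1 was higher at 554, 608 and 738 against 6.1, 2.89 and 8.64 (adjusted p = 2.81e-09, limma), and the glycosyltransferase Lfng at 258 ± 74.3 against 56.3 ± 12.9. The target Hes1 did not overlap, at 92.2 ± 13.1 and 188 ± 60.2, but was not called.

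Replication genes were mostly not called. Of 21 replication and mitosis genes 2 were called higher and 6 lower (median -0.27). The 6 were Mcm2 to Mcm7, subunits of the replicative helicase, 1.67 to 2.51-fold lower, with Mcm6 at 567 ± 297 against 1425 ± 128. When 1 library was left out 2 to 5 of the list were called lower, and Mcm6 and Mcm7 were not lost. The higher calls were Mki67 and Top2a, a topoisomerase of dividing cells, and Top2a was lost without BCL11b+ID2+ replicate 2 or 4 or BCL11b-ID2- replicate 1 or 2. Mki67, the proliferation antigen, was higher at 2646 ± 428 against 1523 ± 242 (1.74-fold, adjusted p = 0.00398, limma). Of 14 G1 genes 5 were higher and 3 lower (median 0.63), with the inhibitor Cdkn1b (p27) at 484 ± 107 against 142 ± 28.9 and Rb1, the retinoblastoma protein, at 449 ± 104 against 104 ± 35.1, while the kinase Cdk4 was lower at 361 ± 166 against 1074 ± 61.4.

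Of 13 immediate early and dissociation stress genes 5 were called higher and 0 lower (median 1.82), and 3 to 5 without 1 library. Their summed level was 4421 to 8660 normalised counts in BCL11b+ID2+ and 947.7 to 2225 in BCL11b-ID2-, without overlap. Dusp1, a phosphatase induced by stress, averaged 1063 ± 368 and 177 ± 27.1, and Fos and Jun were not called. The part of cell handling in this was not tested. Of 12 interferon response genes 3 were higher, Irf7 and Irf1 among them, and 0 lower (median 0.08). Irf7 was lost without BCL11b+ID2+ replicate 1 or 2 or BCL11b-ID2- replicate 2 or 4, and Irf1 without BCL11b+ID2+ replicate 2 or 4 or BCL11b-ID2- replicate 1 or 4. Of 16 glycolysis genes 5 were higher and 1 lower (median 0.61), and 3 to 6 higher and 0 to 1 lower without 1 library, with Pfkp, a phosphofructokinase, at 491 ± 185 against 97.4 ± 23.6. Of 8 GIMAP genes, GTPases of lymphocyte survival, only Gimap6 was called, lower at 51.9 ± 20.7 against 271 ± 65.5. Over all genes tested 14.2% were called in either direction. Of the 8 mitochondrially encoded genes tested limma called 0 (median 0.27), with 2 at an unadjusted p under 0.05 and 0 to 1 called in the other fits, edgeR and DESeq2 among them. Over all lists with 0 calls in a direction, at most 2 members reached an unadjusted p under 0.05 in that direction.

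**Figure D5:**
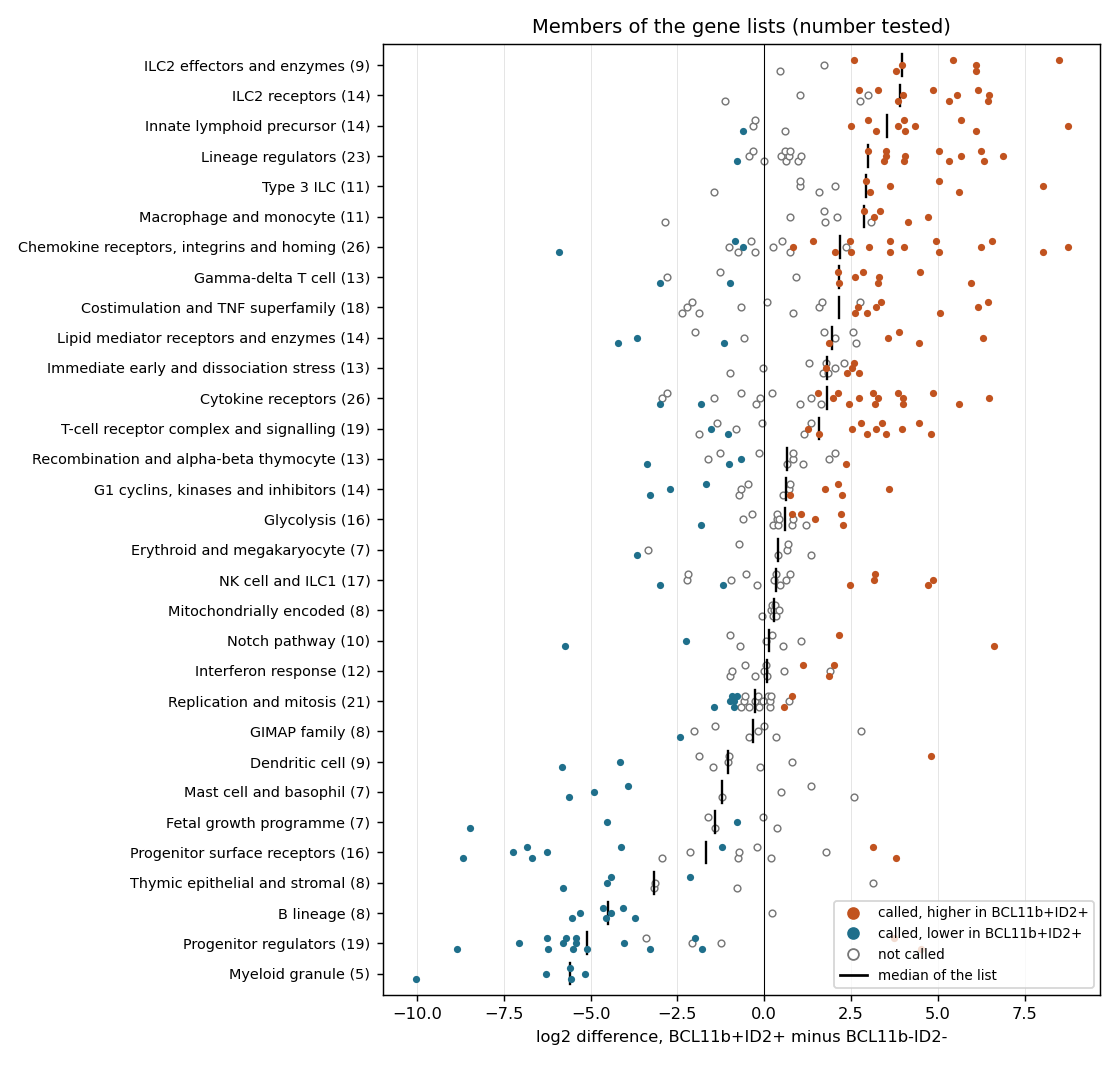
Log2 difference, BCL11b+ID2+ minus BCL11b-ID2-, of every tested member of the 31 gene lists, ordered by the median of the list (black line), with the number tested in brackets. Medians run between 3.97 for ILC2 effectors and -5.59 for myeloid granule genes, and open points are members that were not called.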

How the data were processed

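RNA of flow-sorted thymocytes was extracted with RNeasy Plus micro columns, amplified with the Ovation RNA-seq System V2, sheared and made into libraries with the Ovation Ultralow kit, per the labels' protocols. Molecular identifiers and strandedness are not given in the sources used here. The submitters' processing notes name Trim Galore 0.50, STAR 2.6.0a, GRCm38 and DESeq2 1.18.1. The deposited values, a normalised signal per gene, are read counts normalised by the authors with DESeq, per the labels, and each library holds whole multiples of its smallest value, as division by 1 size factor gives. Dividing by that smallest value gave whole reads for 100% of values within 0.01, and these recovered reads were used for depth, floors and the count tests.

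The main test was limma 3.58.1 (R 4.3.3; trend, robust) on log2(value + 1) over the 18 libraries of E19.5 in 6 populations, with the contrast BCL11b+ID2+ minus BCL11b-ID2- and Benjamini-Hochberg adjustment over 13840 genes at 0.05. Fold changes on this scale understate the change of low genes. A fold printed in the text is the ratio of mean normalised counts, and a log2 difference is from the fit with its SE. Genes named are up to 15 per direction by log2 difference among calls without overlap at a mean of 100 or more, 10 further ones at a mean of 2000 or more, and members of 31 lists (440 genes). Predicted, mitochondrial and ribosomal protein genes were left out of the rankings. The members and lists were chosen with earlier results of these data known. Alternatives were other pseudocounts, filters and scalings, fits of the 6 libraries alone, with a replicate block, with library weights, or without 1 library, edgeR 4.0.16 and DESeq2 1.42.0 on recovered reads. On simulated counts the main fit recovered 43.3% of genes changed 4-fold and 64.65% of those changed 16-fold, and called 0.02% of unchanged ones, over 13281 genes. Genes were placed by GENCODE M21. Some members of the lists are counted but not reported by name here.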

Additional observations from a re-analysis of the deposited data

How the results depend on the processing

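The 1971 genes called (1099 higher, 872 lower) stayed within 1.5 times of that number under every alternative run. The count was 1427 to 1594 without 1 library (837 to 932 higher, 589 to 727 lower), 1689 by edgeR, 2127 by DESeq2 and 2628 with library weights. Scaling to equal totals outside mitochondrial genes gave 948 higher and 1042 lower. The labels do not say whether the library numbers pair the samples, so the main fit did not use them. Same-numbered libraries of the 2 gates correlated at 0.01 to 0.07 in their deviations from the gate means, which cannot exclude pairing. Over all populations 17 of 18 libraries correlated best with their own number, a hint from the data and not from the design. The fit with the replicate block called 2249 genes (1242 higher, 1007 lower) and lost none of the 264 named calls. Of those, 60 were lost under at least 1 alternative and 52 in at least 1 fit without a library, and none reversed. Among the 50 ranked genes the lost ones were Itga4 and Prg2. Counts within lists moved over 1.5 times in 112 of 1054 cases: the B-lineage list had 7 lower and 1 to 10 in other alternatives, myeloid granule 5 lower and 2 to 7, macrophage 5 higher and 2 to 8, mast cell 3 lower and 1 to 4, stromal 4 lower and 2 to 6, replication 6 lower and 3 to 6, and immediate early 5 higher and 5 to 9. The cause was not tested. Depth limits genes near 0 reads, whose folds are bounds or wide ratios.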

Other observations

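Several genes, picked after their values had been seen, were higher in BCL11b+ID2+, among them nuclear receptors. Not all nuclear receptors were: Hnf4a, in the ranking of the report, was lower. Rxrg, a retinoid X receptor, had 105, 96.2 and 88.4 normalised counts in BCL11b+ID2+ and no read in BCL11b-ID2-, at least 99.7-fold higher at the floor of 3 reads (59 to 104 when 1 library was left out), and averaged 0.357 or less in the other E19.5 populations. Rarg, a retinoic acid receptor, averaged 138 ± 48.5 in BCL11b+ID2+ and 1.28 ± 1.47 in BCL11b-ID2-. The clock repressor Nr1d1 averaged 237 ± 58.4 and 10.1 ± 3.52 (log2 difference 4.45 ± 0.57, adjusted p = 6.14e-06, limma). Cish, a feedback inhibitor of cytokine signalling, had 545, 733 and 462 in BCL11b+ID2+, against 30.5, 49.9 and 8.64 in BCL11b-ID2-, and averaged 65.8 or less in the other E19.5 populations. Tph1, the enzyme of serotonin synthesis, had 48.1, 123 and 227 against 0, 0 and 0.96, and Inpp4b, a phosphoinositide phosphatase, averaged 1663 ± 52.5 and 97.2 ± 16.6, a 17.1-fold difference.

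Partners of genes described in the report were also looked up after the fact. The CGRP receptor genes were lower in the gate that had Calca: Ramp1 averaged 22.6 ± 16.8 in BCL11b+ID2+ and 186 ± 21.8 in BCL11b-ID2-, and Calcrl 229 ± 57.6 and 672 ± 186, a call lost without BCL11b+ID2+ replicate 1 or BCL11b-ID2- replicate 2. The DNA methyltransferase Dnmt3b averaged 79.5 ± 30.6 and 947 ± 67.8 and the oxidase Tet1 65.8 ± 26.2 and 297 ± 76.7. Of signalling genes of B and myeloid cells, Btk averaged 2.37 ± 4.11 and 189 ± 65.8, and Igkc, an immunoglobulin constant region, had no read in BCL11b+ID2+ and 171, 36.9 and 111 in BCL11b-ID2-. These levels stand beside the B-lineage list given in the report, and the part of B cells in them was not tested.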
